A study of Mus musculus with 6 samples.

Results

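A bidirectional promoter is the stretch of DNA between 2 genes that are read away from each other from neighbouring 5′ ends. All such promoters of protein-coding genes were taken from the mouse gene table of the build of the data (mm10, GRCm38) by 1 rule, which used no measured value. The genes lay on opposite strands, shared no base, and had 5′ ends within 1 kb of each other. The region ran from 500 bp outside one 5′ end to 500 bp outside the other. The rule gave 743 gene pairs at 735 distinct regions, because 8 regions were named by more than 1 pair with identical 5′ ends. These are the 735 members described here, out of 21436 protein-coding promoters with a known 5′ end. They were compared with 12602 single promoters, which are the 5′ ends of protein-coding genes with no other 5′ end of a protein-coding or long noncoding gene within 10 kb, each taken with 500 bp on both sides.

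At such promoters transcription starts in both directions from 1 nucleosome-depleted stretch, and the pair shares its DNA sequence, its CpG content and often its transcription factor sites. The arrangement is known from DNA repair, replication, mitochondrial and histone genes. CpG islands, stretches rich in C and G whose CG steps are kept, cover most such promoters and tend to be open in many cell types. TATA boxes are rarer there than at promoters of tissue-specific genes. In ATAC-seq the Tn5 transposase inserts adapters into open chromatin, so that an open promoter gives a peak of fragments. The edges of a called peak also depend on the fragment lengths kept and on the peak caller. A width is therefore no direct length of a stretch free of nucleosomes.

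The samples were testis cells of mice at postnatal day 5 (Pnd 5) that the series calls spermatogonia, the germ cells that still divide by mitosis. There were 3 ATAC-seq libraries from Sirt7-/- mice (S7KO), constitutive knockouts of the histone deacetylase SIRT7, and 3 from wild-type mice (WT). Both genotypes were on the 129S1/Sv background, 50000 cells entered each library, and no other treatment or allele was given. Per the study the cells were enriched by a plating step that removes somatic cells and were not sorted, and the replicates were independent biological samples.

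The deposited data were 1 list of peaks per library, with 105728 to 133663 peaks on chromosomes 1 to 19, X and Y. The lists hold no read counts, so depth is known only through the number of peaks. WT replicate 2 had the fewest. A value below is therefore the presence, width or rank of a peak and not an amount of accessibility. Promoter peaks stood at 10 of 10 germ cell genes in all 6 lists, but also at 5 of 5 Sertoli cell genes and 3 of 3 myoid genes, and at 1 of 4 Leydig cell genes with 2 of 4 at none. A peak at a promoter is no measure of expression, and the part of other testis cells in the values below was not tested. The targeted gene Sirt7 is no member. Its promoter had a peak in all 6 lists, which does not check the knockout.

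The spacer, the sequence between both 5′ ends, had a median length of 100 bp, with quartiles of 47 and 232 bp and a range of 0 to 999 bp. Some spacers are shown in full as examples of pairs described below, with and without the letter strings that were counted. They were read 5′ to 3′ from RefSeq promoter sequences of GRCm38.p6. Capitals mark 4 letter strings searched on both strands: the CCAAT box, the GC box GGGCGG, the ETS-type core CGGAAG and the NRF1-type string GCATGCGC. The first 3 belong to textbook pairs, the next to pairs of sirtuin and germ cell genes, then comes a histone pair with the widest peak of all members, a member whose peak was wider in every S7KO library, and last a CpG-poor member with no listed peak.
Brca1/Nbr1: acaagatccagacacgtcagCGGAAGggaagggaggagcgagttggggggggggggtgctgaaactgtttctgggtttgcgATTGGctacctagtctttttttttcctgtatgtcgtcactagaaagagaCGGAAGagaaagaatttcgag
Psmb9/Tap1: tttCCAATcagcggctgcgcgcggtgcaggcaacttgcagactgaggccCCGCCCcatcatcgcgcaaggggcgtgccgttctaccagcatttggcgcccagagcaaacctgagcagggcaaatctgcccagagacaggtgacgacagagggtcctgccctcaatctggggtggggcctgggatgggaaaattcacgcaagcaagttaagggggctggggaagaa
Mrps12/Sars2: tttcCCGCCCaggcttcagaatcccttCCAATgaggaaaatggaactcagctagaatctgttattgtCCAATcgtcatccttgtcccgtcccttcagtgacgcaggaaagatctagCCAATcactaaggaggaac
Sirt3/Psmd13: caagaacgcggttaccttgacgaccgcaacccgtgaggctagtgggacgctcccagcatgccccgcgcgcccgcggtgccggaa
Nfkbib/Sirt2: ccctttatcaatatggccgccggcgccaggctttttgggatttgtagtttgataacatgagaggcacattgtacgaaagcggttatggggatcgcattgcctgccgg
Rad51c/Tex14: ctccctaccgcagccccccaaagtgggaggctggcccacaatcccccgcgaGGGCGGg
H2ac11/H2bc11: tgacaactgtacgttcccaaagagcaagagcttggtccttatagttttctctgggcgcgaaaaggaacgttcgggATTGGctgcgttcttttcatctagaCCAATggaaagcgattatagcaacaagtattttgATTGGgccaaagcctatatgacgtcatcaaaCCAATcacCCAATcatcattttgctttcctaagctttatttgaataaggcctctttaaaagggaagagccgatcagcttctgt
Cc2d1a/4930432K21Rik: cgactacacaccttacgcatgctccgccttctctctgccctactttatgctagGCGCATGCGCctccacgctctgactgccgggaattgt
Best1/Rab3il1: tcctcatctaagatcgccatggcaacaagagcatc

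The spacer of Brca1/Nbr1 lay at chr11:101551956-101552106 (plus strand) and held 2 CGGAAG cores and 1 CCAAT box. That of Psmb9/Tap1 lay at chr17:34187331-34187555 (plus strand), and that of Mrps12/Sars2 at chr7:28741822-28741956 (minus strand) with 3 CCAAT boxes. Sirt3/Psmd13 lay at chr7:140882310-140882393 and Nfkbib/Sirt2 at chr7:28766645-28766751, both read on the plus strand and with none of the 4 strings. Rad51c/Tex14 lay at chr11:87404955-87405012 (minus strand). H2ac11/H2bc11 lay at chr13:22042950-22043197 (plus strand) and held 5 CCAAT boxes in 248 bp. Cc2d1a/4930432K21Rik lay at chr8:84147918-84148007 (minus strand), and Best1/Rab3il1 at chr19:10001634-10001668 (plus strand) with 1 CG step in 35 bp. All of these stretches are intergenic by the gene table, outside both transcripts.

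Across the members the promoter sequences were rich in CG steps. Windows of 300 bases, from 250 before to 50 after the annotated start, were found for 1253 of 1470 gene ends. Their median GC content was 61.3%, against 54.0% for 10346 windows of single promoters. The ratio of observed to expected CG steps had a median of 0.84 at bidirectional and 0.462 at single promoters. With CpG-rich taken as a ratio of at least 0.6 and a GC content of at least 50%, 80.4% of the bidirectional and 38.9% of the single windows were CpG-rich, beside 45.8% of 17491 windows of all protein-coding genes. Windows of the same pair overlap where the spacer is short, so these shares are descriptions and were not tested.

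Letter strings of known factors were also spread unequally. The ETS-type core CGGAAG stood in 44.7% of bidirectional windows, 17.6% of single windows and 21.5% of all protein-coding windows. The TATA box TATAAA stood in 5.67%, 15.1% and 13.3%, in the same order. Its gap was smaller among CpG-rich windows, at 3.38% of bidirectional and 5.00% of single ones. Among CpG-rich windows the ETS-type core remained at 49.95% of 1007 bidirectional against 31.5% of 4023 single windows, and the YY1-type string AAGATGGCG at 6.75% against 3.06%. The ZNF143-type string ACTACAA stood in 7.45% against 3.21% there. The CCAAT box stood in 43.6% of CpG-rich bidirectional and 36.1% of CpG-rich single windows. The GC box changed direction with the windows chosen, at 65.3% of all bidirectional, 41.8% of all single and 46.3% of all protein-coding windows, but at 73.6% of CpG-rich bidirectional and 79.3% of CpG-rich single windows. The NRF1-type string GCATGCGC and the cyclic AMP response element TGACGTCA differed less among CpG-rich windows, at 7.35% against 6.36% and 4.57% against 3.68%. Over all bidirectional and all single windows they stood in 6.46% against 3.14% and 4.07% against 2.05%. A match of letters is no evidence that a factor was bound.

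Nearly all bidirectional promoters had a peak, in every library. In S7KO replicates 1, 2 and 4 a peak overlapped 705 of the 735 regions each time (95.9%, 95% Wilson interval 94.2 to 97.1%). In WT it overlapped 706 in replicate 1 (96.1%) and 704 in replicates 2 and 4 (95.8%). Wilson intervals cover counting error only. The single promoters had a peak in 61.0%, 61.4% and 61.5% of 12602 regions in S7KO replicates 1, 2 and 4 and in 60.9%, 59.7% and 61.5% in WT replicates 1, 2 and 4. The libraries lay close together within each class and the classes did not overlap. The difference was 34.9 percentage points (SD 0.656, n = 6 libraries) and was positive in 6 of 6 libraries (exact two-sided sign-flip permutation test, p = 0.03125, adjusted p = 0.03125 over 4 class comparisons, the smallest value that 6 libraries allow).

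The difference was smaller among CpG-rich promoters. Among CpG-rich promoters only, the share with a peak was 98.4 to 98.7% of 546 bidirectional and 91.1 to 91.8% of 4023 single promoters, a difference of 6.86 points (adjusted p = 0.03125 in the same exact permutation test). When 5′ ends had only to lie within 50 bp of a start in the RefSeq promoter table, whatever their CpG content, the difference was 40.8 points over 342 bidirectional and 7560 single promoters (adjusted p = 0.03125, exact permutation test). With both restrictions it fell to 0.622 points, with 98.99% of 298 bidirectional in every library and 98.1 to 98.5% of 2569 single promoters, still positive in the exact permutation test (adjusted p = 0.03125). This last combination was chosen after the data were seen. Between CpG-rich promoters with matched annotated starts, the classes thus lay within 1 point of each other, with both shares near their upper limit. CpG content was filtered and not matched. CpG-rich windows had a median ratio of 0.877 at bidirectional and 0.829 at single promoters.

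**Figure D1:**
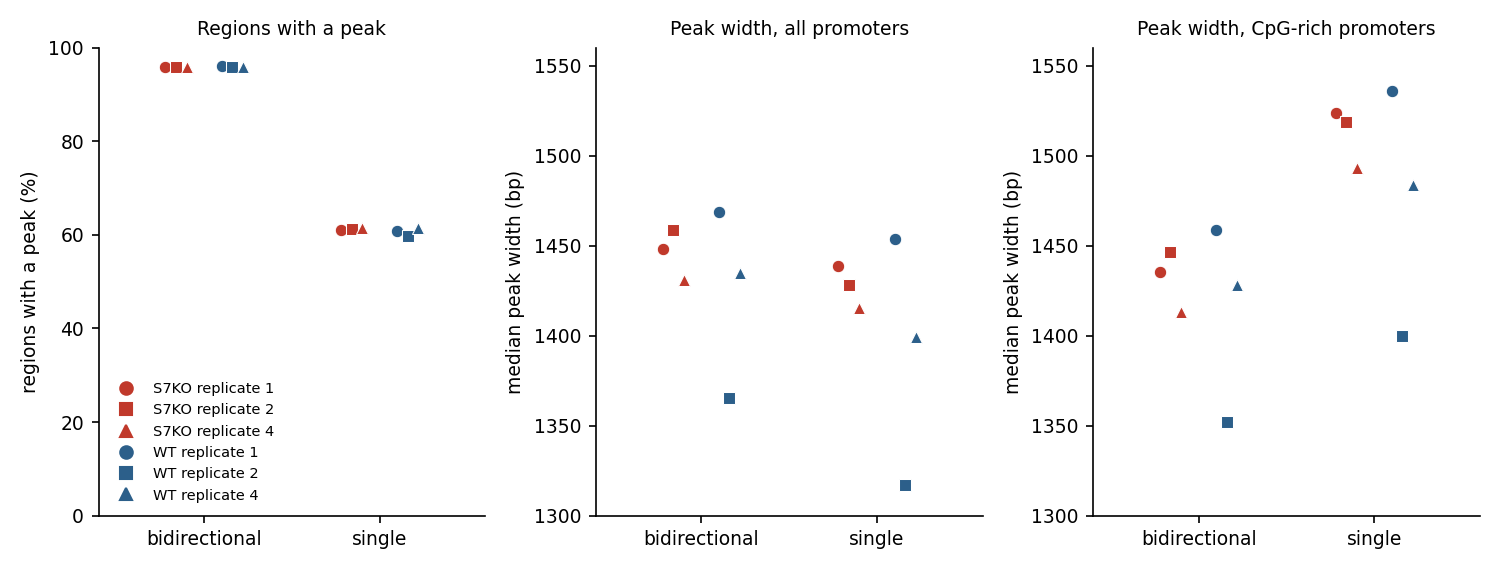
Share of regions with a peak (left, percent) and median width of the peaks (bp) at all promoters (middle) and at CpG-rich promoters only (right), by class, with 1 point per library. The width axes start at 1300 bp. Shares lie near 96% and 61% in every library, while the order of the widths of both classes turns between the middle and the right panel. WT replicate 2 has the lowest median width in each class.

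The peaks at bidirectional promoters were also among the strongest of each list. Ranked by −log10 q within its own library, the median best peak lay in the top 2.54 to 3.38% of the list at bidirectional promoters and in the top 8.56 to 10.9% at single ones. Among CpG-rich promoters only, these median ranks lay closer together, at 2.14 to 2.995% for bidirectional and 5.41 to 7.07% for single promoters. In 571 of the 735 regions (77.7%) the peak stood within the top 10% of all 6 lists. No such share is given here for single promoters, so this count has no background beside it. The covered share of the region, the mean percentage of its bases under a peak, was 86.5 to 89.0% at bidirectional and 48.0 to 51.0% at single promoters. The difference was 37.8 points (SD 0.432, n = 6; exact sign-flip permutation test, adjusted p = 0.03125), 42.0 points with matched starts and 1.02 points among CpG-rich promoters with matched starts.

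Both 5′ ends were held by 1 peak as a rule. This was so in 678, 677 and 674 of 735 regions in S7KO replicates 1, 2 and 4 (92.2%, 92.1% and 91.7%) and in 679, 672 and 674 in WT replicates 1, 2 and 4 (92.4%, 91.4% and 91.7%). A peak covered only 1 of both ends in 23 to 28 regions per library. In no library did the ends fall into separate peaks. In 668 regions (90.9%) 1 peak held both ends in all 6 libraries.

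The peak reached less far into each gene at a bidirectional promoter than at a single one. The median extension past a 5′ end into the gene was 628, 639 and 617 bp in S7KO replicates 1, 2 and 4 and 644, 591.5 and 622.5 bp in WT replicates 1, 2 and 4. At single promoters it was 879, 880 and 870 bp in S7KO and 890, 827 and 869 bp in WT, so the classes did not overlap. The difference was -245.5 bp (SD 6.45, n = 6; exact sign-flip permutation test, adjusted p = 0.03125). It was -205 bp with matched starts and -237 bp with matched starts in CpG-rich promoters, so unlike the presence of a peak it stayed near its size there. With head-to-head pairs of overlapping genes included, which the rule leaves out, it was -177 bp. In those pairs the distance into the gene also holds the overlap of the genes, so this value is not a like measure.

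On the side away from the gene the order was opposite. The median peak at a single promoter ended 443 to 497 bp before the 5′ end, whereas at a bidirectional promoter it ran on through the spacer into the partner gene, 728 to 773 bp in all. Where 1 peak holds both ends, this distance is the spacer plus the arm into the partner. Both arms also entered the median into the gene. With total widths that differed little between the classes, the values on both sides of the 5′ end are thus not independent results. At single promoters the centre of the peak lay inside the gene in 76.2 to 77.7% of the 6832 to 7101 peaks per library that covered the end, by a median of 175 to 181 bp. At bidirectional promoters the arms of the peak were sorted by length within each region. The longer one therefore exceeds the shorter by construction, and the values describe sizes only. The longer arm reached a median of 729 to 795 bp into 1 gene and the shorter arm 465 to 506 bp into the other. The centre of the peak fell inside the spacer in 26.8 to 29.3% of the 672 to 679 regions per library where 1 peak held both ends. Most spacers are short beside the peaks, which limits how many centres can fall in them.

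**Figure D2:**
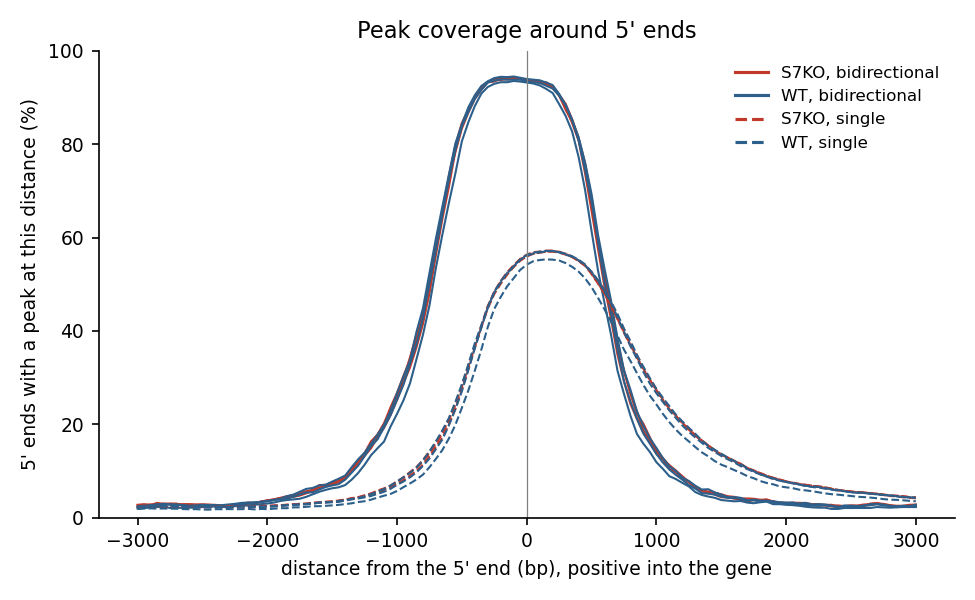
Percentage of 5′ ends with a peak at each distance (bp, positive into the gene), 1 line per library, solid for the 735 bidirectional promoters (both ends counted) and dashed for the 12602 single promoters. At 1000 bp into the gene 11.9 to 15.0% of bidirectional and 24.3 to 27.6% of single ends were covered, and at 500 bp before the end 80.6 to 84.6% and 23.6 to 28.6%. The lines of both genotypes lie on each other except those of WT replicate 2, which run lower.

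The total width of the peaks differed little between the classes, and its direction depended on the promoters chosen. The median width at bidirectional promoters was 1448, 1459 and 1431 bp in S7KO replicates 1, 2 and 4 and 1468.5, 1365.5 and 1435 bp in WT replicates 1, 2 and 4. The single promoters had 1439, 1428 and 1415.5 bp in S7KO and 1454, 1317 and 1399 bp in WT. The bidirectional peaks were wider by 25.75 bp (SD 15.2, n = 6; exact sign-flip permutation test, adjusted p = 0.03125). Among CpG-rich promoters they were narrower, 1352 to 1459 bp against 1400 to 1536 bp, a difference of -70.3 bp (exact sign-flip permutation test, adjusted p = 0.03125). With matched starts the difference was 58.25 bp (adjusted p = 0.03125, exact permutation test). With the lists cut to an equal number of peaks the difference was 16.6 bp (adjusted p = 0.0625, exact permutation test), and for pairs within 500 bp it was 10.1 bp (adjusted p = 0.25).

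Peaks over longer spacers were wider, but by less than the spacer. The median width was 1374 bp (SD 53.4 over 6 libraries) for the 192 members with spacers of 0 to 49 bp and 1617 bp (SD 80.8) for the 64 members with 500 to 999 bp. The median spacer was 25 bp in the first class and 720 bp in the last. Over 706 members the mean width correlated weakly with the spacer (Pearson's r = 0.133, Spearman's rho = 0.169), and these members share libraries and base composition. The CpG ratio was lower for the longest spacers, with a median of 0.66 against 0.845 for the shortest. The share of members with both ends in 1 peak was 96.9 to 97.4% for the shortest and 56.25 to 64.1% for the longest spacers.

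**Figure D3:**
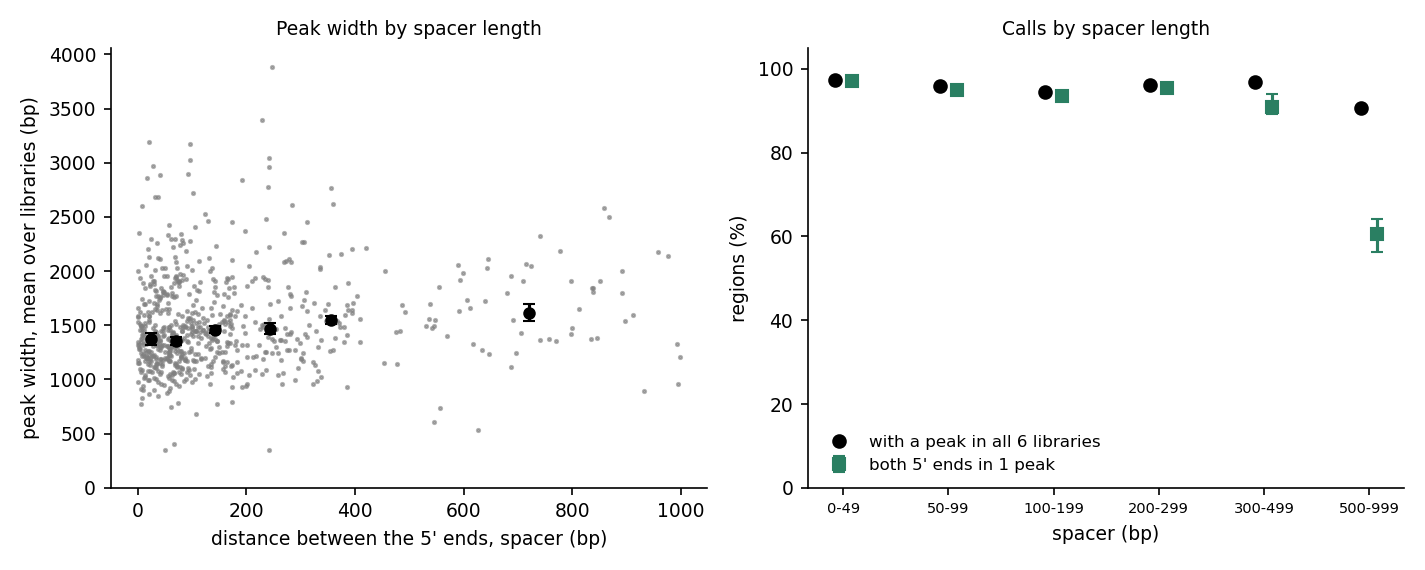
Left, mean peak width over the libraries (bp) against the spacer (bp) for the 706 members with a peak, with the median of each spacer class as a black point (mean of the 6 libraries' medians, bars 1 SD). Right, percentage of members with a peak in all 6 libraries and, as the mean with the range over libraries, with both 5′ ends in 1 peak. The latter drops to 60.7% in the class of 500 to 999 bp, where 90.6% still had a peak in all 6 libraries.

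The pairs nearest to the limit of the rule are given as a description. Just inside 1 kb, Haghl/Ccdc78 had a peak of 1263 to 1399 bp and Pcgf2/Psmb3 one of 1181 to 1246 bp in all 6 libraries, and Ush1g/Otop3 one of 578 to 2039 bp in 5. Just outside, at 1010 bp between the 5′ ends, Myd88/Acaa1a had 1898 to 2153 bp, and Serpina7/4930513O06Rik had no listed peak. A further 423 head-to-head regions met the distance but not the rule, because the gene models overlapped. They had a peak in 96.0 to 96.7% of cases, with median widths of 1392 to 1480 bp, values close to those of the members. Their extension is not the same measure as that of the members. It runs from a 5′ end through the overlap of the gene models before it passes the 5′ end of the partner. Counted so, the peak reached a median of 818 to 866 bp into the gene. This larger value is not a likeness to single promoters. Among them were the known pairs Hspd1/Hspe1, of mitochondrial chaperonins, and Col4a1/Col4a2, of type IV collagen, each with a peak in all 6 libraries.

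Among the questions of the study was whether loss of SIRT7 altered accessible chromatin. By differential signal it reported regions with more and with less accessibility, some of them at promoters, and it also used nuclease digestion in a cell line. The presence and width of listed peaks are other measures and cannot check those results. At bidirectional promoters neither the presence nor the median width of the peaks separated the genotypes. The share with a peak was 95.9% in each S7KO library and 95.9% ± 0.157 (SD, n = 3) in WT, a difference of 0.0454 points (exact two-sided permutation test over 20 assignments, p = 1, adjusted p = 1 over 5 genotype comparisons). The 3 S7KO libraries averaged 1446 ± 14.1 bp for the median width and the 3 WT libraries 1423 ± 52.5 bp (± SD), a difference of 23 bp with overlapping groups (exact permutation p = 0.7, adjusted p = 1). The share with both ends in 1 peak differed by 0.181 points (exact permutation p = 0.8, adjusted p = 1). The smallest p that 3 against 3 libraries can give is 0.1, so these tests could not have passed 0.05. Without WT replicate 2 the width difference was -5.75 bp.

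The contrast between bidirectional and single promoters was also compared between genotypes, and the groups overlapped. The bidirectional share exceeded the single share by 34.6 ± 0.267 points in S7KO and 35.2 ± 0.894 points in WT (SD, n = 3 each; difference -0.526 points, exact permutation p = 0.5, adjusted p = 1). For the median width the excess averaged 18.5 ± 11.3 bp over the S7KO libraries and 33.0 ± 17.2 bp over the WT libraries (difference -14.5 bp, exact permutation p = 0.3, adjusted p = 1).

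Member by member the calls hardly varied. A peak was listed in all 6 libraries at 703 of the 735 regions (95.6%), beside 65.5% of all protein-coding promoters. It was listed in none at 29, and in 1 to 5 libraries at 3. No member was called in every S7KO and no WT library, beside 0.0327% of all protein-coding promoters (7 of 21436). None was called in every WT and no S7KO library, beside 0% of all protein-coding promoters. The 3 variable members were Stat5b/Stat5a, Ush1g/Otop3 and 2700097O09Rik/Srp54a. At Stat5b/Stat5a, cytokine-activated transcription factors, a peak of 1347 to 1690 bp was missing in WT replicate 4. The nearest peak there lay 61 bp from the region. In no library did 1 peak hold both 5′ ends of this pair. Ush1g/Otop3 was without a peak in WT replicate 2, and 2700097O09Rik/Srp54a had a peak of 345 bp in WT replicate 1 only.

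Widths were reproducible between libraries of either genotype. Across the 703 members with a peak in all 6 libraries, the widths of 2 libraries correlated with r = 0.86 to 0.908 within a genotype (6 library pairs) and r = 0.85 to 0.95 between genotypes (9 library pairs). This is across regions, which are not independent replicates. The median SD of a member's width over the 6 libraries was 60.0 bp, while the mean widths of the members ranged from 345 to 3885 bp with quartiles of 1221 and 1752 bp. The S7KO mean minus the WT mean had a median of 16 bp over the members and 23.3 bp over the 14041 protein-coding promoters called in all 6 libraries.

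A wider peak in every S7KO than in any WT library was seen at 32 of the 703 members (4.55%), beside 6.84% of all protein-coding promoters. The reverse held at 21 members (2.99%), beside 1.64%. A full separation of 3 from 3 libraries at 1 region cannot pass a test, and none was run. Both counts rose whichever library was left out. A full separation of fewer libraries is easier to meet, so this rise does not show that a single library set the counts. Without WT replicate 2 they were 41 and 76 of 704 members (5.82% and 10.8%), beside 8.49% and 8.98% of all protein-coding promoters, and without WT replicate 1 the count wider in S7KO was 103. Leaving out WT replicate 4, S7KO replicate 1, 2 or 4 gave 96, 69, 60 and 80 wider in S7KO and 37, 36, 51 and 36 wider in WT. Except for WT replicate 2, the shares over all protein-coding promoters are not given here, so these counts have no background beside them.

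The largest separation lay at the promoter of Gnl3, the nucleolar GTP-binding protein nucleostemin, and Pbrm1, a subunit of a chromatin remodelling complex. Its peak measured 1653, 1653 and 1662 bp in S7KO replicates 1, 2 and 4 and 1041, 1040 and 1046 bp in WT replicates 1, 2 and 4. Every S7KO library lay above every WT library, and the gap was far wider than the spread within a genotype. The edge that moved lay in Gnl3, into which the peak reached 1152, 1146 and 1151 bp in S7KO and 539, 537 and 534 bp in WT. On the side of Pbrm1 it reached 493 to 503 bp in S7KO and 494 to 504 bp in WT, so that edge was at the same place in both genotypes to within the spread of the libraries. The rank of the peak in its list overlapped between genotypes, at 3.75 to 5.69% in S7KO and 3.36 to 5.11% in WT.

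The other separations were smaller. At Cc2d1a/4930432K21Rik, the spacer with the NRF1-type string, the peak was 1527, 1459 and 1444 bp wide in S7KO replicates 1, 2 and 4 and 1268, 1242 and 1199 bp in WT replicates 1, 2 and 4. At Top3a/Smcr8, where Top3a is a DNA topoisomerase, it was 1555, 1488 and 1489 bp in S7KO and 1414, 1374 and 1390 bp in WT. In both pairs every S7KO library lay above every WT library. At Rhno1/Foxm1, of a checkpoint protein and a cell cycle transcription factor, the widths were 1636, 1669 and 1612 bp against 1525, 1547 and 1553 bp. At Mmp11/Chchd10 they were 573, 600 and 582 bp against 475, 440 and 518 bp, and this peak covered the 5′ end of Mmp11 but not that of Chchd10.

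In the opposite direction the peak at Hccs/Gm15246, Hccs being the synthase that attaches heme to cytochrome c, was 1021, 1037 and 992 bp wide in S7KO replicates 1, 2 and 4 and 1160, 1188 and 1194 bp in WT replicates 1, 2 and 4. At Noc4l/Ddx51, of ribosome assembly factors, it was 1272, 1240 and 1246 bp against 1360, 1417 and 1402 bp. At Pidd1/Rplp2, Rplp2 being a protein of the large ribosomal subunit, it was 924, 954 and 924 bp against 1040, 1032 and 1032 bp. All WT libraries lay above all S7KO libraries in each of these pairs. Rbbp4/Zbtb8os, with the histone-binding protein Rbbp4, had 1454, 1445 and 1470 bp against 1556, 1597 and 1555 bp. Atp5pb/Wdr77, with the ATP synthase subunit Atp5pb, had 1198, 1214 and 1182 bp against 1283, 1320 and 1302 bp.

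**Figure D4:**
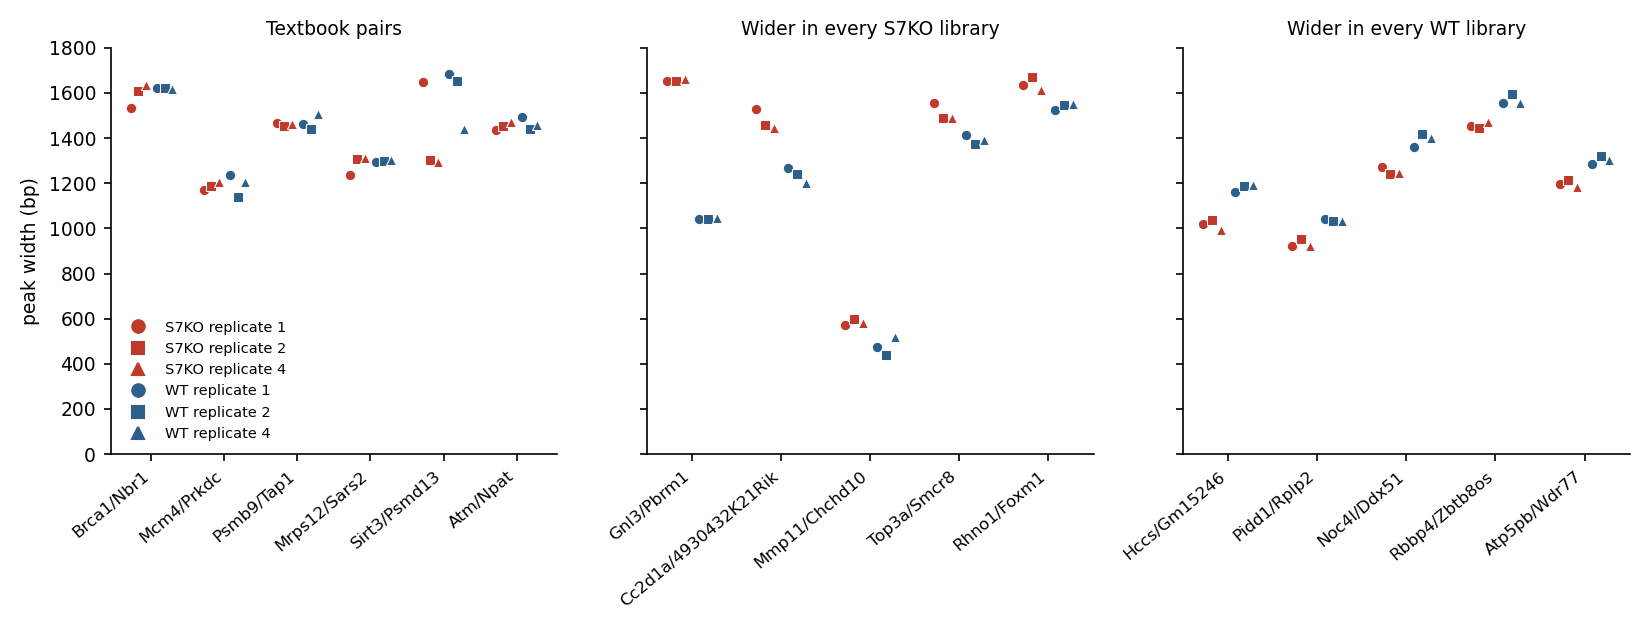
Width of the peak (bp) in each library at 6 textbook pairs (left) and at the 5 members with the largest gap relative to their width in each direction (middle and right), S7KO in red and WT in blue. The middle and right panels show members chosen for this separation. At Gnl3/Pbrm1 the S7KO points lie near 1653 bp and the WT points near 1041 bp, while the genotypes overlap at every textbook pair.

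Of 14 textbook pairs, 6 met the rule, and all had a peak in all 6 libraries. At Brca1/Nbr1, where Brca1 acts in repair of double-strand breaks by recombination and Nbr1 is an autophagy receptor, the widths were 1531, 1607 and 1636 bp in S7KO replicates 1, 2 and 4 and 1620, 1623 and 1618 bp in WT replicates 1, 2 and 4. At Atm/Npat, of a damage-signalling kinase and an activator of histone genes, they were 1435, 1453 and 1472 bp against 1493, 1439 and 1459 bp. At Mcm4/Prkdc, of a replicative helicase subunit and the catalytic subunit of DNA-dependent protein kinase, they were 1168, 1186 and 1206 bp against 1235, 1141 and 1205 bp. The genotypes overlapped at each of these pairs. Psmb9/Tap1, of an immunoproteasome subunit and a peptide transporter for antigen presentation, had 1439 to 1508 bp over the 6 libraries. Mrps12/Sars2, both of mitochondrial translation, had 1235 to 1311 bp.

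By the median of their ranks over the 6 lists, Brca1/Nbr1 stood in the top 0.44%, Mrps12/Sars2 in the top 0.379%, Atm/Npat in the top 0.775% and Mcm4/Prkdc in the top 0.148%. At Brca1/Nbr1 the peak was lopsided, with 1058 to 1126 bp in Nbr1 and 271 to 409 bp in Brca1. At Mrps12/Sars2, with its CCAAT boxes, the arms were 577 to 632 and 507 to 586 bp.

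DNA repair and replication genes were often found among the members. Of 141 listed genes 37 had a bidirectional promoter (26.2%), against 1476 of 21436 protein-coding genes (6.89%). They lay at 36 regions, all with a peak in all 6 libraries, with a median width of 1355 bp beside 1436 bp over all members. Emc3/Fancd2, with a gene of interstrand crosslink repair, had one of the narrower peaks, 923, 941 and 921 bp in S7KO replicates 1, 2 and 4 and 1145, 927 and 991 bp in WT replicates 1, 2 and 4. The libraries of both genotypes overlapped there, and the spacer was 1 bp. Hscb/Chek2, with the checkpoint kinase Chek2, had 1180 to 1287 bp and Pinlyp/Xrcc1, with a scaffold of single-strand break repair, 1153 to 1290 bp. Of the 36 peaks, 0 were wider in every S7KO and 1 in every WT library, beside the 6.84% and 1.64% of all protein-coding promoters.

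Mitochondrial genes were as frequent. Of 205 genes of mitochondrial ribosomes, respiratory chain and import, 55 had a bidirectional promoter (26.8%), and all 53 regions had a peak in all 6 libraries, with a median width of 1313 bp. Of these, 5 were wider in every S7KO and 3 in every WT library, beside 32 and 21 of the 703 members and 6.84% and 1.64% of all protein-coding promoters. Ndufs1/Eef1b2, with a subunit of respiratory complex I, had 1522, 1478 and 1473 bp in S7KO replicates 1, 2 and 4 and 1365, 1451 and 1460 bp in WT replicates 1, 2 and 4. The groups did not overlap there. Mrpl54/Apba3 had 802 to 870 bp, a narrow peak in every library. At Rps28/Ndufa7 WT replicate 2 stood apart with 1447 bp, while the other libraries had 728 to 926 bp.

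Genes of transfer RNA synthetases, which load amino acids, were at bidirectional promoters in 7 of 31 cases (22.6%), all with a peak in all 6 libraries. Ears2/Ubfd1, whose 5′ ends are neighbouring bases, had 1557 to 1626 bp and Kars/Terf2ip 1433 to 1566 bp. Lyrm4/Fars2 had 1393 to 1396 bp in 5 libraries and 1498 bp in WT replicate 4. None of the 7 was separated between genotypes. Of 6 type IV collagen genes 0 met the rule, and 4 belonged to overlapping head-to-head pairs.

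Meiosis and germ cell genes were rarer. Of 61 listed genes 5 had a bidirectional promoter (8.2%), close to the 6.89% of all genes, and all 5 had a peak in all 6 libraries. These peaks ranked lower in their lists than most members, whose median was 2.84%. Rec114/Hcn4, with a gene needed for meiotic double-strand breaks and a cardiac pacemaker channel, had 2906 to 2996 bp at a median rank of 24.0%. Smc1b/Ribc2, with a meiotic cohesin subunit, had 1789, 1089 and 1751 bp in S7KO replicates 1, 2 and 4 and 1309, 1176 and 1267 bp in WT replicates 1, 2 and 4, so the S7KO libraries spanned the WT values. Mlc1/Mov10l1, with a helicase of the piRNA pathway, had 1338 to 1796 bp at a rank of 19.3%. At Rec114/Hcn4 a 5′ end lay 81147 bp from the nearest start of its gene in the RefSeq promoter table. At Mlc1/Mov10l1 the distance was 4140 bp. Whether the genes of these pairs share a promoter is therefore uncertain. The same holds for other named pairs, among them Stat5b/Stat5a at 8423 bp, Pidd1/Rplp2 at 3540 bp, Pcgf2/Psmb3 at 2786 bp and Nek8/Tlcd1 at 1414 bp. Rad51c/Tex14, with a recombination gene and a gene of the intercellular bridges of germ cells, had 1217 to 1425 bp at 4.01%, and Ddx25/Pus3 1773 to 2067 bp at 11.1%.

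Of the 7 sirtuin genes, the family of SIRT7, 3 had a bidirectional promoter. Sirt6/Ankrd24 was 1 of the separated members, with 1680, 1502 and 1461 bp in S7KO replicates 1, 2 and 4 and 1450, 1383 and 1391 bp in WT replicates 1, 2 and 4. The gap was small, 1461 bp in S7KO replicate 4 against 1450 bp in WT replicate 1. Such a separation was seen at 4.55% of the members and 6.84% of all protein-coding promoters. A single pair is therefore no result about the sirtuin family. Sirt3/Psmd13, of a mitochondrial deacetylase and a proteasome subunit, had 1650, 1304 and 1294 bp against 1682, 1652 and 1440 bp. Nfkbib/Sirt2 had 1121, 1282 and 1298 bp against 1214, 899 and 1229 bp. The genotypes overlapped at both of these pairs. At Sirt3/Psmd13 the variable edge was in Sirt3, with 899 to 1283 bp, while 283 to 313 bp lay in Psmd13.

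**Figure D5:**
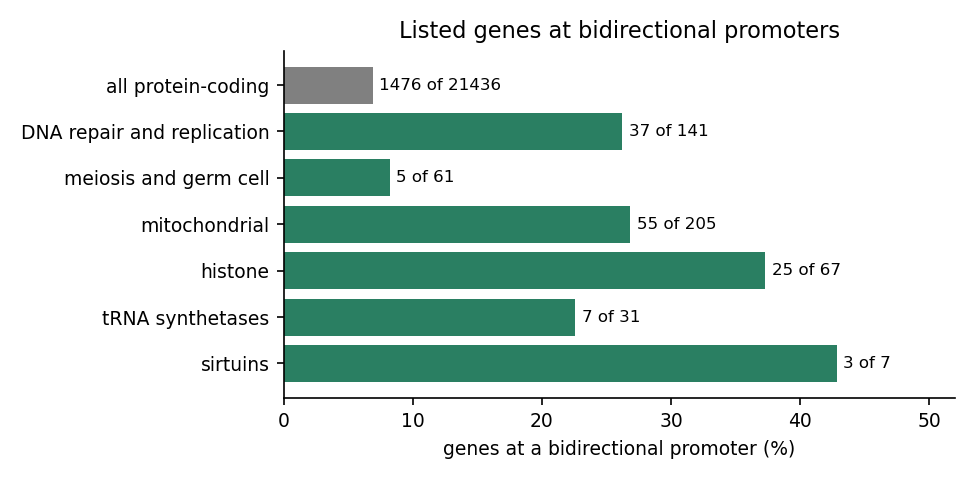
Percentage of the genes of each list that have a bidirectional promoter by the rule, with the counts at the bars and all protein-coding genes in grey. DNA repair, mitochondrial and transfer RNA synthetase genes lie between 22.6% and 26.8%, and meiosis and germ cell genes at 8.2% are near the 6.89% of all genes. The sirtuin list holds only 7 genes.

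Histone genes formed the group with the widest peaks. Of 67 listed histone genes 25 lay at 13 bidirectional regions, most of them H2a/H2b pairs in the clusters of chromosome 13. A peak was listed in all 6 libraries at 11 of the 13 and in none at 2. The median width was 1855 bp, beside 1436 bp over all members. H2ac11/H2bc11, with 5 CCAAT boxes, had 3884, 3877 and 3837 bp in S7KO replicates 1, 2 and 4 and 3991, 3878 and 3843 bp in WT replicates 1, 2 and 4, the widest of all members, with overlapping genotypes. It reached 2407 to 2567 bp past the 5′ end of H2ac11, and 3 other 5′ ends lay within 10 kb. H2bc13/H2ac13 had 3316 to 3897 bp in 5 libraries and 1676 bp in WT replicate 2. H2ac20/H2bc21 on chromosome 3 had 2722 to 2936 bp. The spacers were longer, with a median of 228 bp beside 100 bp.

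Not every histone pair was wide. H2bc7/H2ac7 had 923, 946 and 491 bp in S7KO replicates 1, 2 and 4 and 934, 477 and 959 bp in WT replicates 1, 2 and 4, so 1 library of each genotype had a peak of near 500 bp. H2ac8/H2bc8 had 998 to 1646 bp. The 2 members without a listed peak, H2bc23/H2ac23 and H2ac24/H4bc24, lay 9952 to 9990 bp and 1188 to 1241 bp from the nearest one. Histone genes have near-identical copies, and the authors kept uniquely mapped reads only, so calls at these genes are uncertain. The part of this filter was not tested.

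Outside the histones the widest peaks were those of Nek8/Tlcd1 at 3104 to 3241 bp, Peg3/Usp29 at 3152 to 3182 bp and Cramp1l/Ift140 at 2983 to 3102 bp. Peg3/Usp29 is an imprinted promoter, read from the paternal copy. Its peak lay almost wholly on 1 side, with 2998 to 3023 bp past the 5′ end of Peg3 and 50 to 66 bp into Usp29, and the genotypes overlapped. At the shortest spacers Capza1/St7l, whose 5′ ends are neighbouring bases, had 2027, 2037 and 2054 bp in S7KO replicates 1, 2 and 4 and 1948, 2018 and 1933 bp in WT replicates 1, 2 and 4. At Klhl18/Kif9 S7KO replicates 1 and 2 had 2423 and 2344 bp and the other 4 libraries 1227 to 1355 bp.

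The 29 members with no listed peak in any library were mostly of low CpG content. Of the 25 with a sequence window, 13 had a CpG ratio below 0.3 and 7 were CpG-rich. Of the CpG-rich members as a whole 98.2% (536 of 546) had a peak in all 6 libraries, against 86.5% (115 of 133) of the others. Best1/Rab3il1, with the retinal channel gene Best1, had a ratio of 0.0448, and the nearest peak lay 354 to 548 bp from its region. Plcz1/Capza3, genes of sperm, lay 1921 to 2193 bp from the nearest peak. Fam217a/4933417A18Rik and Angel1/Lrrc74a lay 6486 to 6554 bp and 4713 to 5270 bp away, and Gm26650/Gm10410 at least 1177690 bp.

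Some of these regions were close to a peak all the same. Dusp3/Cfap97d1 lay 3 to 174 bp, Rnf123/Mst1 64 to 111 bp, Acp4/Gm15517 660 to 730 bp and Rnf151/Rps2 853 to 945 bp from the nearest one. In all, 6 of the 29 had a peak within 1 kb in every list, and 11 had none within 10 kb in any. Among the latter were the CpG-rich promoters of Ranbp1/Trmt2a, with a regulator of nuclear transport, and Zcchc17/Snrnp40, with a spliceosome protein, at least 25290 and 10468 bp from the nearest listed peak. Both, and the pair H2ac24/H4bc24 above, were named after their values were seen. Whether the lists used here hold every peak the authors called at such places could not be settled, so the 29 are members without a listed peak, which is no measure of closed chromatin.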

How the data were processed

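ATAC-seq was measured in 6 libraries, 3 S7KO and 3 WT. Per the submitters' processing notes and the study's methods, reads were trimmed with Trim Galore 0.6.6 and aligned to mm10 with Bowtie2 2.4.4.1. Uniquely mapped reads were kept with SAMtools 1.19.2, duplicates and mitochondrial reads were removed, and ends were shifted for the Tn5 offset with deepTools 3.5.1. Peaks were called per library with MACS2 2.2.5 in broad mode at a cutoff of 0.1. The study's methods describe a filter on fragment size, while its results name nucleosome-free fragments. Which fragment lengths entered the calls could not be settled from the sources used here. In the deposited lists each peak has a position, a score, a fold enrichment (a ratio over the local background), and −log10 p and −log10 q values, all from the authors' peak caller. Columns of these lists were used for position and −log10 q only. Peaks found in each library depend on its depth, which the lists do not give.

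Gene 5′ ends came from the RefSeq gene table of GRCm38.p6, with strand from the RefSeq promoter table for 17491 genes and from GENCODE by symbol for 3945. Both 5′ ends lay within 50 bp of a start in that promoter table at 342 members. A region had a peak when at least 1 bp was shared. Where a region had several peaks, the widest gave its width and the one with the highest −log10 q its rank. Genotypes were compared by exact two-sided permutation of the 6 libraries, classes by exact sign flips over libraries, each with Benjamini-Hochberg adjustment within its family (Python 3.11.15, scipy 1.17.1). The scripts were tested on simulated data. p-values measure the spread between these libraries.

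The labels share replicate numbers 1, 2 and 4 between genotypes. In the main tests the numbers were taken as names only. Width deviations of same-numbered libraries correlated at 0.0605, -0.00312 and 0.0961 over 14041 promoters. The widths themselves, over 703 members, correlated at 0.903, 0.85 and 0.95 between the libraries numbered 1, 2 and 4. The value for number 2 was the lowest and that for number 4 the highest of all library pairs. In S7KO and WT the lists held 119786 and 118881 peaks for number 1 and 133299 and 133663 for number 4. For number 2 they held 127985 and 105728. Whether a number marks a shared batch was not tested. Named pairs were the textbook pairs, up to 6 pairs a list (textbook first, then shortest spacer), the extremes of spacer and width, up to 10 pairs with no peak (shortest spacer first), those called in some libraries, and in each direction the 5 with the largest gap relative to width. Members, lists and tests were chosen with earlier results of these data known.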

Additional observations from a re-analysis of the deposited data

Results flagged for a closer look

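WT replicate 2, which had the fewest peaks, lay far below the other 5 libraries in 5 measures, by the ratio of its gap to the whole range of the 6 libraries of both genotypes. Its median peak width at bidirectional promoters was 1365.5 bp and its covered share of these regions 86.5%. At single promoters its share with a peak was 59.7%, its covered share 48.0%, and its extension into the gene 827 bp. Chance flags about 1 in 20 such groups, and these measures share the same peaks. The part of depth was not tested.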

How the results depend on the processing

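In the exact permutation tests, the class difference in width fell to 16.6 bp with equal numbers of peaks, 10.1 bp for pairs within 500 bp and 18.75 bp with replicates 1 and 4 only, none past 0.05. It rose to 58.25 bp with matched 5′ ends, and reversed to -70.3 bp among CpG-rich promoters and -56.8 bp among CpG-rich promoters with matched 5′ ends. With replicates 1 and 4 only, the smallest p was 0.125, and the class differences were 34.7 points (share), 37.6 points (covered) and -249 bp (extension). Leaving out 1 library, where 0.0625 is the smallest p, gave 34.7 to 35.0 points, 21.2 to 29.1 bp, 37.6 to 37.9 points and -247.5 to -244 bp. The genotype difference in width was -12.25 bp with replicates 1 and 4 only and -5.75 to 45.75 bp when 1 library was left out. That in both ends held by 1 peak was -0.0975 points with matched 5′ ends, -0.0680 with replicates 1 and 4 only and -0.0227 to 0.454 when 1 library was left out. Regions wider in every S7KO library numbered 64 with overlapping pairs included, which is a larger set of 1158 regions. Among the members they numbered 73 with replicates 1 and 4 only and 41 to 103 when 1 library was left out. Members wider in every WT library numbered 146 and 29 to 76 in the last 2 settings. Except without WT replicate 2, the shares over all protein-coding promoters are not given for these settings. These counts therefore have no background beside them and are no result about the members. Causes were not tested, beyond the smaller number of libraries. With the replicate number as a block (replicate block, smallest p 0.25) the genotype difference in width was 23 bp (exact permutation p = 1), and no call changed.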
